A study of Homo sapiens with 8 samples.

Results

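Nuclear oxidative phosphorylation genes were taken as the listed genes whose symbol marks them as a subunit or a named assembly factor of respiratory complexes I to V. The symbols were those of the families NDUFA, NDUFB, NDUFC, NDUFS, NDUFV, NDUFAF, SDHA to SDHD, SDHAF, UQCR, UQCC, COX4 to COX8 and ATP5. This rule found 97 of 13036 listed genes, and no expression value entered it. All 97 passed the filter on low values, which asked for at least 1 CPM (reads scaled per library of one common size) in at least 2 libraries. Of the members, 75 code for subunits: 34 of complex I, 4 of complex II, 8 of complex III, 12 of complex IV and 17 of complex V. Another 18 code for assembly factors, 8 of complex I, 4 of complex II and 6 of complex III. The remaining 4 were COX7A2L, a factor of respiratory supercomplexes, ATP5IF1, the inhibitor protein of ATP synthase, UQCRHL, a copy of UQCRH, and NDUFB2-AS1, an antisense RNA.

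All libraries came from LN229-TAZ(4SA), a human glioblastoma line whose name refers to a form of TAZ, a co-activator of the Hippo pathway. Treated cells received AF at 1 µM in medium without glucose for 1 h or 7 h, and regular cultures were kept for the same times with no AF. Each of the 4 groups has 2 libraries, called A and B without order, and every group, regular culture included, is of this same line. AF appears in the labels under this abbreviation alone, and the title of the series concerns thioredoxin reductase 1. AF and glucose loss came together, so their separate effects cannot be told apart. No label says whether the libraries of a group were separate cultures, and the p-values therefore reflect only how far these libraries differ, possibly for technical reasons. RNA came from whole cultures, in which a change in all cells and a change in the mix of cells cannot be told apart.

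Oxidative phosphorylation passes electrons from NADH (complex I) or succinate (complex II) through complex III to oxygen at complex IV. The protons pumped on the way drive ATP synthase, complex V. Most subunits are encoded in the nucleus and imported, a core set is encoded in mitochondrial DNA, and assembly factors help to build the complexes without staying in them. Glioblastoma lines in culture take much of their ATP from glucose through glycolysis, and cells without glucose depend more on respiration of other fuels.

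Listed genes drew between 27731776 and 45811965 reads per library, so that a single read counted for 0.0209 to 0.0430 CPM. The members were mostly well covered, with a median of 57.5 CPM over the 8 libraries against 28.2 CPM for all tested genes, and 88 of 97 had a mean above 10 CPM. In the reference annotation 50 members have at least 1 named pseudogene and 42 share exon bases with another gene, so part of their reads may be shared. NDUFB2-AS1, at 1.21 and 1.56 CPM in treated cells and 1.38 and 1.13 CPM in regular culture at 7 h, cannot be told apart from NDUFB2 without strand and was not called. The pairs of libraries varied beyond counting error (chi-square over its degrees of freedom 2.79 to 3.62). In the treated 7 h libraries the library size behind the deposited CPM was 0.838 and 0.846 times the reads in listed genes, against 1.05 times in both regular 7 h libraries. This scaling decides the direction of small changes, so each result was also computed with every library scaled to its own sum of reads in listed genes (total-read scaling) and after quantile normalization. Total-read scaling moved the 7 h median of all genes by -0.31 on the log2 scale. Below, a member at 7 h is said to have risen or fallen only where limma called it in that direction under all 3 scalings, and is otherwise called higher or lower on the deposited scale. A rise or fall at 7 h means treated cells against regular culture at 7 h, not a change of treated cells over time.

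Promoter sequences are shown for 5 members on which the results turn, the marker COX5B, a further complex IV gene (COX8A), the assembly factor genes with the largest called changes (UQCC1 and SDHAF1) and the lower complex II subunit gene SDHA. They lie just upstream of the annotated start, read 5′ to 3′ on the gene's strand, and come from RefSeq on GRCh38.p14: COX5B chr2:97645942-97646061 (plus), COX8A chr11:63974370-63974619 (plus), UQCC1 chr20:35411974-35412223 (minus), SDHA chr5:218070-218319 (plus) and SDHAF1 chr19:35995068-35995187 (plus). Capitals mark matches to the NRF1 motif GCGCANGCG or to the ETS motif CCGGAAGT, the letters bound by GABP, on either strand.
COX5B: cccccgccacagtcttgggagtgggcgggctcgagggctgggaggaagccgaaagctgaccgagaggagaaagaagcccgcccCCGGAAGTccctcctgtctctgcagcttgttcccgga
COX8A: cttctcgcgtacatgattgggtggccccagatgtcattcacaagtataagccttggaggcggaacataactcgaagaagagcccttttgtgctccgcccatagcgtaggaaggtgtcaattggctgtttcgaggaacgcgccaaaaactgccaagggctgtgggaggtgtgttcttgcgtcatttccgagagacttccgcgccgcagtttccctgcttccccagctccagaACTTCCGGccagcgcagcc
UQCC1: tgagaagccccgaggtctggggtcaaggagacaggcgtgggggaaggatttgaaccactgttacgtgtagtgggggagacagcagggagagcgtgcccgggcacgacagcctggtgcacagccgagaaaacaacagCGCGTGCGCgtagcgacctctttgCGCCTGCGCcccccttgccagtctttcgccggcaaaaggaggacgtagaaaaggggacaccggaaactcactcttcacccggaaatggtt
SDHA: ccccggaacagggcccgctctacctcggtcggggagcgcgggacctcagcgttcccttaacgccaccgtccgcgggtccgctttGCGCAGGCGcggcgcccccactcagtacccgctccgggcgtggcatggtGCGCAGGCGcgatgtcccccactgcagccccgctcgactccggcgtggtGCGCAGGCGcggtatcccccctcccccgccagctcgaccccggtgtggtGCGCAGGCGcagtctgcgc
SDHAF1: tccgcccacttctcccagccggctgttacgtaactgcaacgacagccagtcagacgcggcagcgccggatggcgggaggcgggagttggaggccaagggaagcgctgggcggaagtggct
The stretches shown hold 250 bases for COX8A, UQCC1 and SDHA and 120 bases for COX5B and SDHAF1. In them SDHA has 4 NRF1 matches, UQCC1 has 2, COX5B and COX8A have 1 ETS match each, and SDHAF1 has neither. The whole COX5B window described next holds 2 ETS matches, and that of SDHAF1 none. Over windows of 250 bases before to 50 bases after the start, 82 of the 97 members and 10451 of the tested genes had a RefSeq promoter. The NRF1 motif was found in 31.7% of the members' promoters, against 14.8% of all promoters, and in 1 of 11 complex IV promoters. The ETS motif was found in 13.4% of the members' and 8.92% of all promoters, and the YY1 motif AAGATGGCG in 9.76% and 4.05%. The GC box GGGGCGGGG was found in 13.4% of the members' promoters, against 27.5% of all promoters. These matches describe letters in a window, not bound sites.

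The 7 h comparison asked how cells held with AF and without glucose differed from regular culture after prolonged exposure. On the deposited scale most subunit genes were modestly higher in treated cells, while assembly factor genes went both ways. Of 97 members, 59 were called higher and 14 lower (limma, Benjamini-Hochberg adjusted p under 0.05), where 40.5% of all tested genes were called higher and 41.1% lower. The members' share was thus 60.8% higher and 14.4% lower. Their median log2 fold change was 0.20, against -0.01 for all tested genes. Changes of at least 2-fold were few: NDUFA4L2 and UQCC1 were that much higher and SDHAF1 that much lower, where 10.6% and 11.5% of tested genes were. Members whose treated and regular libraries did not overlap numbered 84 of 97, beside 90.6% of all tested genes.

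The direction of this shift depended on the scaling. Under total-read scaling, 17 members were higher and 48 lower with a median of -0.11, and after quantile normalization 58 were higher and 15 lower with a median of 0.16. The members' median lay 0.21 above that of all genes on the deposited scale and 0.18 above it after quantile normalization. It lay 0.21 above under total-read scaling, but that scaling shifts all genes nearly alike and could hardly change this position. In each of the 3 scalings 76 of the 97 members lay above the median of all genes, a count that total-read scaling could likewise hardly change. As a share of the reads in listed genes, the members made up 0.734% and 0.718% in treated cells at 7 h and 0.773% and 0.775% in regular culture at 7 h. Under all 3 scalings, 17 members (17.5%) rose and 12 (12.4%) fell, both below the shares of all tested genes called so in all 3, 24% higher and 39.3% lower. Of the genes named below, COX7A2L, NDUFA10, NDUFA12, NDUFB5, NDUFB9, NDUFV2 and UQCR10, and also UQCRC1 and the lower-ranked members given in passing, lie outside the rule for named genes and were named after their values were seen.

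**Figure D1:**
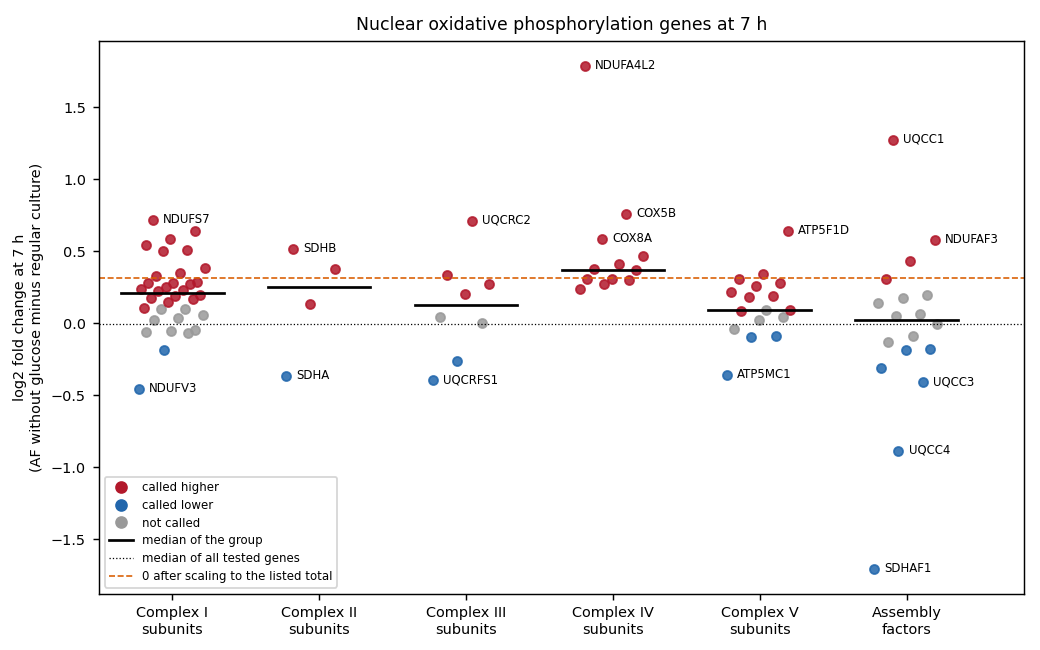
Log2 fold change at 7 h (y axis, AF without glucose minus regular culture, 2 libraries each) of the 75 subunit and 18 assembly factor genes by complex, with bars at group medians and colours for limma calls on the deposited scale. All 12 complex IV genes lie between 0.24 and 1.79, assembly factors spread from -1.70 to 1.28, and the dashed line shows where 0 lies under total-read scaling.

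**Figure D2:**
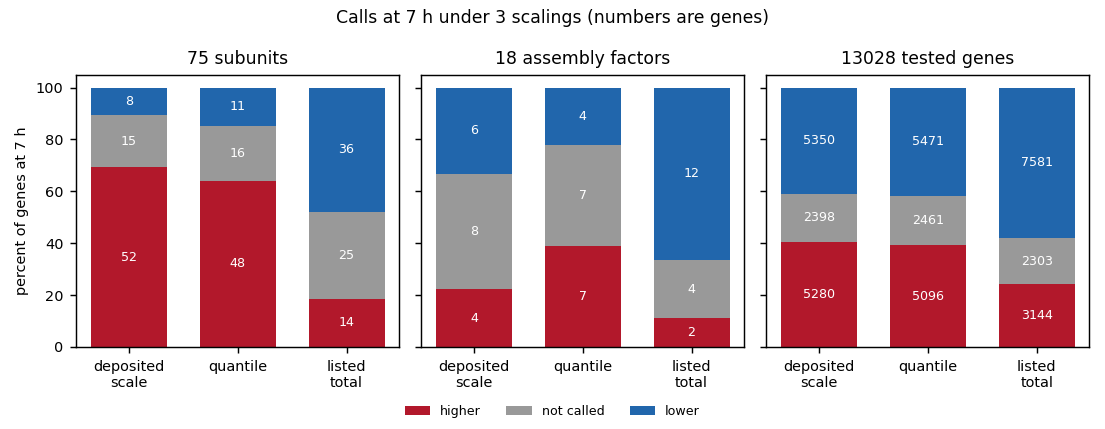
Percent of genes called higher, not called or lower at 7 h (y axis) under the deposited scale, quantile normalization and total-read scaling (listed total), for subunits, assembly factors and all tested genes. Among the 75 subunits, 52 were higher on the deposited scale, 48 after quantile normalization and 14 under total-read scaling, where 36 were lower.

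Complex IV, cytochrome c oxidase, was the most uniform of the complexes at 7 h. All 12 of its measured nuclear subunit genes were called higher on the deposited scale and after quantile normalization, with medians of 0.37 and 0.33. Under total-read scaling 5 were higher, none was lower, and the median was 0.06. COX5B, which encodes a zinc-binding subunit on the matrix side, had 83.6 and 91.5 CPM in treated cells, against 55.1 and 48.7 CPM in regular culture. Both treated libraries lay above both regular ones (log2 fold change 0.76, SE 0.06; limma adjusted p = 5.20e-10). COX5B has 8 pseudogenes named after it in the RefSeq gene table, so its reads may be shared with near-identical copies.

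COX8A, the ubiquitous form of subunit 8, had 256 and 243 CPM in treated cells, against 168 and 164 CPM in regular culture. It rose by 0.58 (SE 0.04; limma adjusted p = 8.15e-12), but 34.5% of its exon bases also lie in exons of another gene, and the libraries do not mark strand. In regular culture COX8A was called lower at 7 h than at 1 h under all 3 scalings. COX7A2, the broadly expressed subunit 7A form, had 126 and 125 CPM in treated cells, against 91.1 and 90.0 CPM in regular culture, and rose by 0.47. COX6A1, the broadly expressed subunit 6A form, had 131 and 125 CPM in treated cells and 96.7 and 95.4 CPM in regular culture, and rose by 0.41. The groups did not overlap for either gene. COX4I1, the ubiquitous form of the regulatory subunit 4, had 287 and 277 CPM in treated cells and 229 and 228 CPM in regular culture. It was called higher on the deposited scale (0.30) but differed by -0.01 under total-read scaling. COX6B1, a subunit facing the intermembrane space, was higher by 0.37 on the deposited scale and differed by 0.05 under total-read scaling. COX5A, COX6C, COX7B and COX7C were called higher by 0.24 to 0.31 on the deposited scale. COX4I2, COX6A2, COX6B2 and COX7A1, which encode tissue-restricted forms, were not analysed here.

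NDUFA4, once counted in complex I and now known as a subunit of complex IV, and its relative NDUFA4L2 stood far apart in level, at 87.9 and 0.484 CPM per kilobase of transcript in regular culture at 7 h. NDUFA4 had 251 and 236 CPM in treated cells, against 188 and 186 CPM in regular culture, and was higher by 0.38 on the deposited scale (0.06 under total-read scaling). NDUFA4L2, a gene induced by hypoxia and linked to lower complex I activity, had 2.37 and 1.85 CPM in treated cells, against 0.543 and 0.596 CPM in regular culture. These values rest on 55 and 58 reads in treated cells and on 26 and 27 reads in regular culture. NDUFA4L2 showed the largest rise among the members (log2 fold change 1.79, SE 0.27; limma adjusted p = 6.43e-06). COX7A2L, which helps to tie complexes III and IV into supercomplexes, had 97.6 and 98.6 CPM in treated cells and 63.9 and 62.3 CPM in regular culture, a rise of 0.64.

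**Figure D3:**
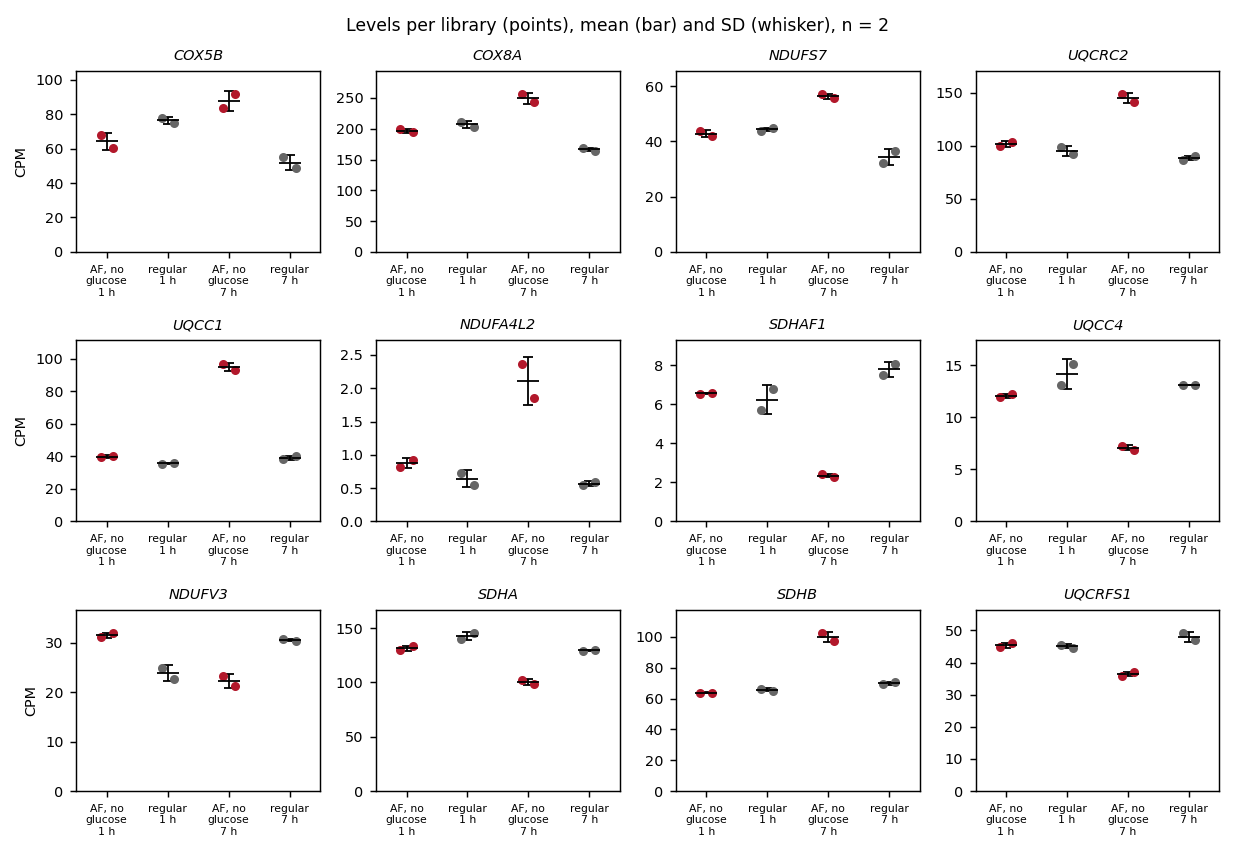
CPM per library (points) of 12 members in the 4 groups, with the group mean (bar) and SD (whiskers, n = 2) on linear axes that start at 0. At 7 h the treated points lie above the regular ones for COX5B, COX8A, NDUFS7, UQCRC2, UQCC1, NDUFA4L2 and SDHB, and below them for SDHAF1, UQCC4, NDUFV3, SDHA and UQCRFS1.

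Complex I, the NADH dehydrogenase, had 23 of 34 subunit genes higher and 2 lower on the deposited scale (median 0.21). Under total-read scaling 6 were higher and 17 lower. By module, 5 of 9 genes of the NADH-binding N module were higher and 2 lower, 5 of 6 of the quinone-binding Q module were higher, and 13 of 19 of the membrane arm were higher with none lower. NDUFS7, a Q module subunit that holds an iron-sulfur cluster, had 57.1 and 55.8 CPM in treated cells, against 32.3 and 36.4 CPM in regular culture. It rose by 0.72 (SE 0.05; limma adjusted p = 2.28e-10), and 55.1% of its exon bases are shared with another gene. NDUFB11, a membrane arm subunit, had 73.9 and 68.4 CPM in treated cells and 45.8 and 45.6 CPM in regular culture, a rise of 0.64, with 44.9% of its exon bases shared. NDUFA10 (0.58), NDUFB5 (0.54) and NDUFB9 (0.51) of the membrane arm and NDUFA12 (0.50), assigned to the N module, also rose.

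The subunits that fell in complex I both belong to the N module, the tip at which NADH hands over its electrons. NDUFV3, an accessory subunit, had 23.3 and 21.2 CPM in treated cells, against 30.8 and 30.4 CPM in regular culture, and fell by 0.46 (SE 0.06; limma adjusted p = 1.26e-06). NDUFV2, a core subunit with an iron-sulfur cluster, had 59.8 and 58.5 CPM in treated cells and 68.2 and 66.4 CPM in regular culture, and fell by 0.19. For both genes the treated libraries lay below the regular ones, and 41.1% of the exon bases of NDUFV2 are shared with another gene. NDUFV1, the core subunit that binds NADH, had 179 and 178 CPM in treated cells and 146 and 149 CPM in regular culture. It was higher by 0.28 on the deposited scale and differed by -0.04 under total-read scaling. Within each library, and so free of the scaling between libraries, reads of NDUFV1 were counted per read of NDUFV3. There were 7.67 and 8.39 in treated cells at 7 h, against 4.72 and 4.88 in regular culture. At 1 h the order was the opposite, with 4.81 and 4.76 in treated cells, against 5.63 and 6.30 in regular culture. Ratios of this kind were chosen after the values were seen and are given as a description.

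Complex II, succinate dehydrogenase, has 4 subunits and all are nuclear. Its catalytic pair moved in opposite directions at 7 h. SDHA, the flavoprotein that oxidises succinate, had 103 and 98.2 CPM in treated cells, against 129 and 130 CPM in regular culture, and fell by 0.37 (SE 0.04; limma adjusted p = 1.47e-08). SDHB, the iron-sulfur subunit that takes the electrons on, had 102 and 97.5 CPM in treated cells, against 69.1 and 70.5 CPM in regular culture, and rose by 0.52 (SE 0.04; limma adjusted p = 3.73e-10). The groups did not overlap for either gene. In treated cells at 7 h there were 0.997 and 0.993 reads of SDHB per read of SDHA, against 0.534 and 0.542 in regular culture at 7 h. SDHA has 4 named pseudogenes and SDHB 1. The membrane anchors were called higher on the deposited scale, SDHD by 0.38 and SDHC by 0.13, but differed by 0.06 and -0.19 under total-read scaling, and the SDHC call was lost without regular library B (0.11).

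Complex III, which hands electrons from ubiquinol to cytochrome c, had 4 of 8 subunit genes higher and 2 lower on the deposited scale. UQCRC2, a core protein, had 149 and 142 CPM in treated cells, against 87.0 and 90.1 CPM in regular culture, and rose by 0.71 (SE 0.04; limma adjusted p = 4.51e-12). UQCRFS1, the Rieske iron-sulfur protein that is added late in assembly, had 35.9 and 37.0 CPM in treated cells, against 49.1 and 47.0 CPM in regular culture, and fell by 0.40 (SE 0.05; limma adjusted p = 1.83e-07). UQCR10, a small subunit, fell by 0.26. In treated cells at 7 h there were 4.13 and 3.83 reads of UQCRC2 per read of UQCRFS1, against 1.77 and 1.92 in regular culture. The other core protein gene, UQCRC1, was nearly level at 190 CPM in both treated libraries and 191 and 189 CPM in regular culture, a difference of -0.001 on the deposited scale. UQCRH, the hinge protein gene, and its copy UQCRHL were higher by 0.27 and 0.32 on the deposited scale, and reads of the copy may belong to UQCRH.

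Complex V, ATP synthase, had 10 of 17 subunit genes higher and 3 lower on the deposited scale with a median of 0.09, and 1 higher and 12 lower under total-read scaling. The catalytic F1 head showed a split as well. ATP5F1D, the delta subunit of the central stalk, had 53.1 and 53.3 CPM in treated cells, against 36.1 and 32.3 CPM in regular culture, and rose by 0.64 (SE 0.06; limma adjusted p = 1.33e-08). ATP5F1A, the alpha subunit, had 361 and 363 CPM in treated cells, against 386 and 384 CPM in regular culture, and fell by 0.09. That call was lost without treated library A (-0.08) or regular library A (-0.08). In the stalk and the rest of the membrane-bound Fo part, 5 of 9 genes were called higher and none lower on the deposited scale. ATP5F1B, the catalytic beta subunit and the member with most reads per base of transcript in regular culture at 7 h, had 839 and 827 CPM in treated cells and 690 and 679 CPM in regular culture. It was called higher on the deposited scale (0.28), not called under total-read scaling (-0.03) and called lower after quantile normalization (-0.09).

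The c-ring of ATP synthase is made from ATP5MC1, ATP5MC2 and ATP5MC3, which encode the same mature protein behind different import signals. On the deposited scale their summed level was 438 and 422 CPM in treated cells, against 437 and 433 CPM in regular culture at 7 h. Under total-read scaling all 3 genes were lower at 7 h (-0.68, -0.13 and -0.41 in this order), so their sum was lower as well. ATP5MC1 had 58.8 and 56.8 CPM in treated cells, against 77.1 and 71.6 CPM in regular culture, and fell by 0.36 (SE 0.05; limma adjusted p = 8.06e-07). Its share of the 3 genes was 13.4% in both treated libraries, against 17.7% and 16.5% in regular culture, while the share of ATP5MC2 was 44.6% and 46.4% against 38.9% and 40.1%. ATP5MC3 fell by 0.10, a call lost without treated library B (-0.04), regular library A (-0.09) or regular library B (-0.10). ATP5MC2 was higher by 0.19 on the deposited scale and lower by -0.13 under total-read scaling. ATP5MC1 has 8 named pseudogenes and ATP5MC2 has 5. ATP5IF1, which blocks the reverse reaction of ATP synthase, had 66.1 and 57.0 CPM in treated cells and 49.8 and 50.8 CPM in regular culture. It was called higher on the deposited scale (0.29) and differed by -0.03 under total-read scaling.

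Assembly factor genes differed in pattern from the subunit genes at 7 h, with 4 of 18 called higher and 6 lower on the deposited scale and a median of 0.02. Under total-read scaling 2 were higher and 12 lower, and after quantile normalization 7 were higher and 4 lower. The difference in counts between subunits and assembly factors was not tested. SDHAF1, which helps to insert the iron-sulfur clusters of SDHB, had 2.41 and 2.30 CPM in treated cells, against 7.51 and 8.08 CPM in regular culture. These levels rest on 56 and 72 reads in treated cells and on 360 and 366 reads in regular culture. It showed the largest fall of all members, by 1.70 on the log2 scale (SE 0.12; limma adjusted p = 7.62e-11). SDHAF2, which attaches the flavin to SDHA, had 32.87 and 32.97 CPM in treated cells and 32.2 and 30.8 CPM in regular culture and did not pass on the deposited scale (0.06), with -0.25 under total-read scaling.

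The complex III factors, the UQCC proteins, some of which act at early steps around cytochrome b, included the largest rise among the assembly factor genes and several falls. UQCC1 had 96.8 and 93.2 CPM in treated cells, against 38.36 and 39.96 CPM in regular culture (log2 fold change 1.28, SE 0.05; limma adjusted p = 1.63e-15). UQCC4 had 7.23 and 6.89 CPM in treated cells, against 13.1 CPM in both regular libraries, and fell by 0.89 (SE 0.09; limma adjusted p = 1.09e-08). UQCC3, a factor that binds cytochrome b, had 13.0 and 13.7 CPM in treated cells, against 17.43 and 18.03 CPM in regular culture, and fell by 0.41. None of these groups overlapped. UQCC6 fell by 0.31, at a low level of 6.24 and 6.57 CPM in treated cells and 7.87 and 8.01 CPM in regular culture. UQCC1 made up 60.0% and 59.0% of the reads of the 6 UQCC genes in treated cells at 7 h, against 35.2% and 36.4% in regular culture. Among complex I factors, NDUFAF3, needed for early assembly of the Q module, had 54.2 and 54.1 CPM in treated cells and 37.3 and 35.3 CPM in regular culture, and rose by 0.58 (SE 0.05). NDUFAF2, which acts late in assembly, was higher by 0.44 on the deposited scale and by 0.12 under total-read scaling. NDUFAF6 was lower by -0.18 on the deposited scale, a call lost after quantile normalization (-0.12) and without treated library B (-0.14), regular library A (-0.20) or regular library B (-0.17). The other 9 assembly factor genes lay between -0.18 (NDUFAF8) and 0.31 (UQCC2) on the deposited scale.

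The 1 h comparison asked for the early response, and here few members changed. Only 4 of 97 were called higher and 13 lower on the deposited scale, where 17.7% of all tested genes were called higher and 20.7% lower. The median was -0.03, against 0.01 for all tested genes, and no member was called with a change of at least 2-fold, where 1.1% of tested genes were that much higher and 2.03% that much lower. Treated and regular libraries did not overlap for 58 of 97 members, beside 68.1% of tested genes. The balance again followed the scaling, with 16 higher and 5 lower after quantile normalization and 19 higher and 2 lower under total-read scaling. Without treated library B only 1 member was called higher and 6 lower, without treated library A 7 were lower, and without regular library B 8 were lower. 4 members were called higher under all 3 scalings (NDUFV3, UQCC1, SDHAF2 and NDUFV1) and 2 lower (NDUFS6 and COX5B), where 16.3% of all tested genes were called higher and 13.7% lower in all 3.

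NDUFV3, which fell at 7 h, had 31.1 and 32.0 CPM in treated cells at 1 h, against 25.01 and 22.78 CPM in regular culture (log2 fold change 0.40, SE 0.06; limma adjusted p = 3.47e-05). NDUFS6, an accessory N module subunit, had 81.6 and 78.7 CPM in treated cells at 1 h, against 102 and 95.8 CPM in regular culture, and fell by 0.30 (SE 0.04; limma adjusted p = 1.69e-05). These calls held in all alternatives run, including each fit that left out 1 library. COX5B had 67.7 and 60.5 CPM in treated cells at 1 h, against 77.72 and 74.99 CPM in regular culture, and fell by 0.25, a call lost without treated library B (-0.17). UQCC1 was higher by 0.16, a call lost without treated library B (0.14), SDHAF2 by 0.15, lost without treated library B (0.13) or regular library A (0.13), and NDUFV1 by 0.09, lost without any 1 of 6 libraries. Other falls on the deposited scale, of ATP5F1D (-0.22), UQCC4 (-0.22), NDUFB11 (-0.16) and NDUFAF3 (-0.16), were not called under total-read scaling and were each lost without at least 1 library.

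**Figure D4:**
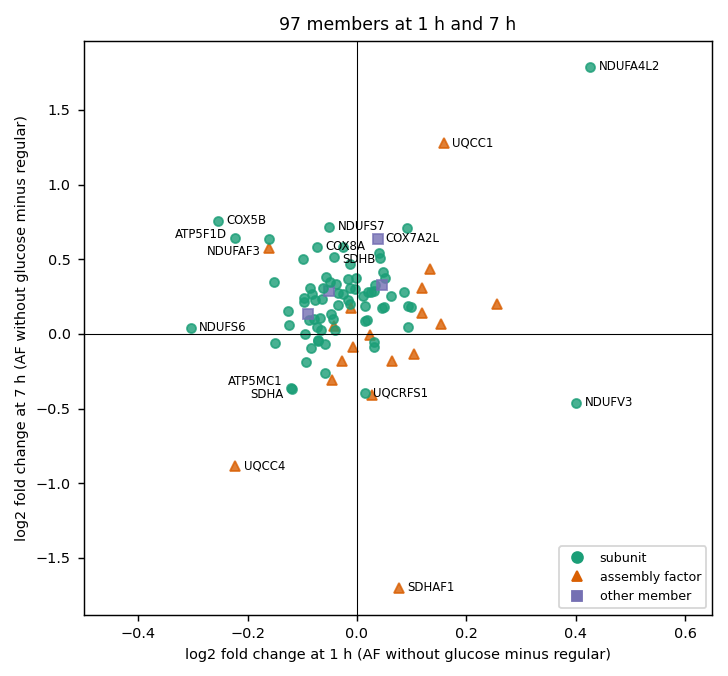
Log2 fold change of the 97 members at 1 h (x axis) and at 7 h (y axis), both AF without glucose minus regular culture on the deposited scale, with symbols for subunits, assembly factors and other members. Most points lie within 0.3 of 0 at 1 h, while NDUFV3 lies at 0.40 at 1 h and -0.46 at 7 h and COX5B at -0.25 at 1 h and 0.76 at 7 h.

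Whether the difference between treated and regular cells changed with time was tested as 1 contrast, the 7 h difference minus the 1 h difference. It was called positive for 54 members and negative for 9 on the deposited scale, where 36.7% of tested genes were called positive and 37.0% negative, and the median was 0.22. Under total-read scaling 13 were positive and 50 negative. The members' share on the deposited scale was thus above that of all genes for positive calls and below it for negative ones. Under all 3 scalings 13 members (13.4%) had a positive and 9 (9.28%) a negative difference, both below the 19.2% positive and 34.8% negative of all tested genes. COX5B (1.01, SE 0.08; limma adjusted p = 2.02e-09), UQCC1 (1.12), NDUFA4L2 (1.36) and ATP5F1D (0.86) led the positive ones. SDHAF1 (-1.78, SE 0.17; limma adjusted p = 1.22e-08), NDUFV3 (-0.86), UQCC4 (-0.66) and UQCC3 (-0.44) led the negative ones.

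Regular culture itself changed over the same hours, and its 7 h libraries also serve the 7 h comparison, so the values are set side by side and not counted as separate support. Between 7 h and 1 h of regular culture, 14 members were higher at 7 h and 18 lower, where 30.7% of tested genes were called higher and 30.8% lower, with a median of 0.02. The 14 became 5 without regular 7 h library A, 6 without regular 7 h library B and 4 without regular 1 h library A. COX5B had 55.1 and 48.7 CPM at 7 h, against 77.72 and 74.99 CPM at 1 h of regular culture (log2 fold change -0.56, SE 0.06; limma adjusted p = 1.45e-07). On the deposited scale its treated 7 h libraries, at 83.6 and 91.5 CPM, lay above regular culture of both times. Its fall in regular culture was called under all 3 scalings, but its difference between 7 h and 1 h of treated cells was not. NDUFAF3 (-0.46), NDUFB11 (-0.38) and NDUFS7 (-0.37) were also lower at 7 h than at 1 h of regular culture. So were COX8A and ATP5F1D, and these 5 calls held under all 3 scalings. NDUFAF2 (0.46), NDUFV3 (0.36), SDHAF1 (0.32) and UQCC6 (0.27) were higher, of which SDHAF1 lost its call without regular 7 h library A (0.37), regular 7 h library B (0.27) or regular 1 h library A (0.20). UQCC6 lost it without any 1 of the 4 regular libraries.

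Between 7 h and 1 h of treated cells, 64 members were called higher at 7 h and 11 lower on the deposited scale, where 36.9% of tested genes were called higher and 40.7% lower. Under total-read scaling 10 were higher and 58 lower. UQCC1 was higher at 7 h than at 1 h of treatment by 1.251 and SDHAF1 lower by -1.46. UQCC4 was lower by -0.77. COX5B was higher by 0.45 on the deposited scale, a call not kept under all 3 scalings. Calls of COX6A1, COX7A2, COX8A, NDUFAF3, NDUFB5, NDUFB11 and NDUFS7 as higher over time were not kept either. The other members that rose against regular culture at 7 h, among them NDUFA4L2, SDHB and UQCRC2, kept theirs under all 3 scalings. For UQCC1, SDHAF1 and UQCC4 the treated 7 h libraries lay outside the range of the other 6 libraries.

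Related mitochondrial genes outside the rule are given for comparison on the deposited scale, with no test of any list. Total-read scaling shifts all of the 7 h values by about -0.31, so positive 7 h differences smaller than that change direction under it. Of 46 other assembly factors, subunits and electron carriers, 15 (32.6%) were higher and 20 (43.5%) lower at 7 h, with a median of -0.07, beside 40.5% higher and 41.1% lower of all tested genes. PET117 (-1.37), LYRM7 (-1.18), which brings the Rieske protein to complex III, and SCO2 (-1.15), a copper chaperone of complex IV, were lowest. SCO2 had only 0.77 and 0.45 CPM in treated cells, against 1.42 and 1.32 CPM in regular culture (SE 0.29). PET117 was also low, at 2.11 and 2.71 CPM against 5.72 and 6.86 CPM. COX20 (0.85), COA8 (0.61) and COX10 (0.53), all factors of complex IV, were highest. Among 13 mitochondrially encoded respiratory genes 5 (38.5%) were higher and 6 (46.2%) lower at 7 h, close to the shares of all tested genes. ND4 was at 0.51 and ND2 at -0.79. At 1 h, 1 (7.69%) was higher and 8 (61.5%) were lower with a median of -0.19, beside 17.7% and 20.7% of all tested genes. Of 27 genes of the TCA cycle and pyruvate dehydrogenase, 10 (37.0%) were higher and 8 (29.6%) lower at 7 h. They were led by PDK4 (3.04), the kinase that shuts off pyruvate dehydrogenase, and FH (-0.46), fumarate hydratase.

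Of 18 regulators of mitochondrial biogenesis, 8 (44.4%) were higher and 7 (38.9%) lower at 7 h, close to the 40.5% and 41.1% of all tested genes. NRF1, the transcription factor that binds the NRF1 motif, had 16.4 and 15.8 CPM in treated cells, against 36.3 and 36.6 CPM in regular culture (log2 fold change -1.18, SE 0.05; limma adjusted p = 4.84e-14). GABPB1, a subunit of the ETS factor GABP, had 98.8 and 99.5 CPM in treated cells, against 46.5 and 46.1 CPM in regular culture (1.10, SE 0.04). GABPA, the other GABP subunit gene in this list, was not called (0.12, SE 0.07). It had 38.7 and 36.1 CPM in treated cells, against 32.5 and 36.4 CPM in regular culture. POLG (-1.06) and PPRC1 (-1.03) were lower, and ESRRG (1.79) and CHCHD2 (0.58) were higher. ESRRG had 5.12 and 5.14 CPM in treated cells, against 1.545 and 1.346 CPM in regular culture. It was lower at 7 h than at 1 h of regular culture (-1.85) and was not called between these times in treated cells (0.14).

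The line's own markers CD44 and VIM were present, at a summed 4584 to 4593 CPM in treated cells and 4815 to 4875 CPM in regular culture at 7 h. Of 19 markers of other cell types, 5 were in the table, all of neurons and glia (GFAP, MBP, SYT1, SNAP25 and RBFOX3). All 5 were called higher at 7 h on the deposited scale, with a summed 129 to 136 CPM in treated cells and 44.6 to 46.9 CPM in regular culture. Most of the treated sum came from SYT1 (85.2 and 86.9 CPM) and RBFOX3 (25.2 and 28.7 CPM), both also higher at 7 h than at 1 h of treatment. GFAP, MBP and SNAP25 were not called between these times (0.07, -0.30 and 0.003). They were lower at 7 h than at 1 h of regular culture (-0.97, -1.61 and -0.36). The part of these 5 markers in the results for the members was not tested.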

How the data were processed

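RNA of 8 libraries was sequenced from SMART-Seq mRNA HT and Nextera XT preparations, per the labels' protocols. These do not mark strand. The submitters' processing notes name HISAT2, the build GRCh38 and edgeR. The sources used here do not give their versions or the counting step. The authors' deposited table gives log2 CPM with a small prior for 13036 genes, already scaled between libraries. From the spacing of low values the prior was 0.0522 CPM, and without it 100% of values matched whole reads to within 0.1. CPM values in the text have the prior removed. A level of 3 reads was 0.0626 to 0.129 CPM. No value column was left unassigned.

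Of these, 13028 genes reached 1 CPM in 2 or more libraries, and their log2 values went into limma 3.58.1 (R 4.3.3). The model had a mean for each group, used the 8 libraries together and let the variance follow intensity. There were 4 residual and 14.5 prior degrees of freedom. p-values were adjusted by Benjamini-Hochberg over all tested genes, at a threshold of 0.05. SE is limma's standard error on the log2 scale. The planned pseudocount of 0.5 CPM was not needed for log values and was run as an alternative. The other alternatives were quantile normalization, scaling each library to its sum of reads in listed genes, no filter, no intensity trend, voom weights, a fit of only the 4 libraries compared, and each library left out in turn. The fit was tested on simulated data. Exon overlaps used GENCODE v29, and gene positions, pseudogene names and promoters came from RefSeq. The text names, per contrast, the largest called changes at each time and per complex, plus subunits and isoforms set by name. The members, lists and rules were chosen with earlier results of these data known. Some cell type markers are not reported here, and the marker sums leave them out.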

Additional observations from a re-analysis of the deposited data

Results flagged for a closer look

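The difference between treated and regular cells was compared between the times by the limma contrast of the 7 h difference minus the 1 h difference. On the deposited scale it was called positive for 54 of 97 members and negative for 9, where 36.7% of all tested genes were called positive and 37.0% negative. Under total-read scaling it was called positive for 13 members and negative for 50. Among the named members it was 1.36 for NDUFA4L2, 1.12 for UQCC1, 1.01 for COX5B and 0.86 for ATP5F1D. It was -1.78 for SDHAF1, -0.86 for NDUFV3, -0.66 for UQCC4 and -0.44 for UQCC3. These 8 genes kept their call and direction under all 3 scalings.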

How the results depend on the processing

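Most of the members' deposited-scale calls higher at 7 h depended on the scaling, while most of their calls lower did not. When each library was scaled to its reads in listed genes, calls higher and lower at 7 h numbered 3144 and 7581 of all tested genes, 17 and 48 of members, 14 and 36 of subunits and 2 and 12 of assembly factors, and the medians of members and subunits turned to -0.114 and -0.0886. ATP5F1B (-0.0342), ATP5IF1 (-0.0292), ATP5MC2 (-0.127), COX4I1 (-0.0135), NDUFS6 (-0.28), NDUFV1 (-0.0366), SDHAF2 (-0.25) and SDHC (-0.19) turned negative at 7 h. At 1 h, 3937 of all tested genes were then higher (1823 lower), as were 19 members (2 lower), 13 subunits (2 lower) and 5 assembly factors (0 lower). The difference between times was positive and negative for 2515 and 7583 of all tested genes, 13 and 50 of members and 10 and 38 of subunits, and negative for 12 assembly factors. In treated cells between 7 h and 1 h, 2248 and 8565 of all tested genes and 10 and 58 of members were higher and lower. After quantile normalization 7 assembly factors were higher at 7 h, beside 5096 of all tested genes. At 1 h, 16 members were higher and 5 lower, beside 3085 and 2250 of all tested genes. Of subunits 14 were higher and 4 lower, and 1 assembly factor was lower. The difference between times was then negative for 14 members and 11 subunits, beside 5035 of all tested genes. It was positive for 5 assembly factors, beside 4452 of all tested genes. Between the times of regular culture 24 members were then higher at 7 h, beside 4649 of all tested genes. ATP5F1B turned to -0.0855 at 7 h, and COX4I1 to 0.0836 and NDUFA4 to 0.104 at 1 h, each called in its new direction. Without an intensity trend, 2 members were lower at 1 h, as were 2 subunits (1 higher) and 0 assembly factors, and the difference between times was negative for 5 assembly factors.

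With each library left out in turn, members numbered 54 to 60 higher and 10 to 14 lower at 7 h, and 1 to 5 higher and 6 to 13 lower at 1 h. Subunits numbered 1 to 3 higher and 6 to 11 lower at 1 h, and assembly factors 0 to 2 higher and 0 to 2 lower. The difference between times was negative for 3 to 5 assembly factors, and 4 to 14 members were higher at 7 h of regular culture. The low ends came at 1 h without treated library B (1 higher, 6 lower), with 7 lower without treated library A and 8 without regular library B, and in regular culture without 7 h library A (5), 7 h library B (6) or 1 h library A (4). Under all 3 scalings, 17 members (17.5%) were higher and 12 (12.4%) lower at 7 h, beside 24% and 39.3% of all tested genes. Of the lower ones, ATP5F1A and ATP5MC3 lost their call in some of the fits that left out 1 library. No paired analysis was possible because the columns carry no replicate numbers. With 2 libraries a group, small differences are limited by the spread between libraries, and members under 100 reads, such as NDUFA4L2, by counting error as well.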
